A study of Chlorocebus aethiops with 12 samples.

Results

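The average effect of dexamethasone over 2 mutant glucocorticoid receptors was measured in COS-1 cells as the mean of the effect with each mutant, so each receptor counts equally. All 12 arrays of the series enter it, 6 from cells given dexamethasone and 6 from cells given the vehicle. COS-1 is an established fibroblast-like line from the kidney of the African green monkey that carries the SV40 large T antigen and is widely used for transient transfection. Cells of every group were transiently transfected with mouse CCRP carrying a V5 tag (mCCRP-V5) and with human glucocorticoid receptor carrying a FLAG tag (FLAG-hGR), and the receptor had its tyrosine at position 30 replaced by phenylalanine (Y30F) or by glutamate (Y30E). Treatment began 40 h after transfection and lasted 6 h, with 100 nM dexamethasone (Y30F-DEX and Y30E-DEX) or 0.1% DMSO (Y30F-DMSO and Y30E-DMSO). Each of the 4 groups had 3 arrays. No group without a transfected receptor, or with the unmutated one, is among the samples, so a response through the transfected receptor and one through any receptor of the cells' own cannot be told apart. Transient transfection also leaves a mixture of cells that took up the plasmids and cells that did not, and a change in fewer cells and a smaller change per cell cannot be told apart.

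The glucocorticoid receptor is a ligand-activated transcription factor of the nuclear receptor family. Without hormone it is held in the cytoplasm by HSP90 and co-chaperones. On binding a glucocorticoid such as dexamethasone it enters the nucleus, where it binds response elements in DNA and raises the transcription of some genes while it lowers that of others, in part by acting on other transcription factors. The part of the protein before its DNA-binding domain, where tyrosine 30 lies, holds its main activation function. CCRP is a co-chaperone with J domain that was first described as a cytoplasmic retention protein of another nuclear receptor. The series title speaks of N/C-interacting and non-interacting receptor without saying which mutant is which, and the response averaged over the mutants is described here.

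The RNA was hybridised to human whole-genome arrays with 1 colour, so a mismatch between monkey RNA and human probe can lower a signal. The level of a probe is therefore not read as the abundance of its transcript, and classes of signal are used only to describe precision and brightness on the array. The share of spots well above background was 60.5% on the lowest array and 67.0% on the highest, and 0 spots were saturated. The files give transcript records without gene names, and they do not pair the records with genes. For that reason features are called by record, at most 2 per direction are identified, and neither gene families nor markers of the cell line, nor the transcripts of the transfected proteins, were analysed here. Of 32379 records on the array, 18424 had a probe well above background on all 12 arrays and were tested. The brightest such probe stood for its record. Levels are log2 signals relative to the 75th percentile of their own array, and effects are differences of such levels, so an effect of 1 is a 2-fold change.

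Averaged over the receptors, dexamethasone changed 784 of the 18424 features (4.26%), of which 549 rose (2.98%) and 235 fell (1.28%), by limma with a Benjamini-Hochberg adjusted p under 0.05. The number depended on the processing: median centring in place of the 75th percentile gave 452, with 275 rises and 177 falls, slide as a fixed block gave 346, with 238 rises and 108 falls, the arrays without slide 2 gave 218, and array weights gave 1694. Most of the 784 changes were small. The median was 0.31 (log2) among features that rose, with quartiles of 0.23 and 0.47, and -0.26 among those that fell, with quartiles of -0.37 and -0.20. Of the 784, 326 had changed by less than 1.2-fold, 361 by 1.2-fold to 1.5-fold and 97 by at least 1.5-fold. The larger changes were mainly rises, with 81 rises against 16 falls of at least 1.5-fold and 14 rises against 3 falls of at least 2-fold. These 17 features were all those of the 18424 with an average of at least 2-fold in either direction (0.0923%), while 3 features with at least 1.5-fold did not pass the test, all of them in the dimmest of 3 equal classes of mean signal. Over all features the median effect was 0.012 (log2), and 56.3% had an effect above 0.

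**Figure D1:**
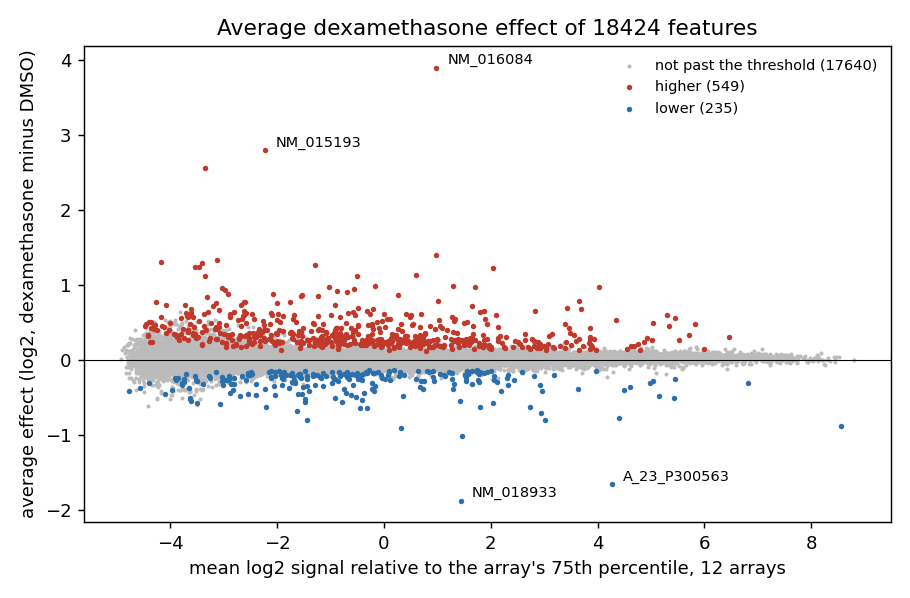
Average effect of dexamethasone (log2, dexamethasone minus DMSO, vertical axis) against the mean log2 signal over 12 arrays relative to the array's 75th percentile (horizontal axis), with 1 point per feature. The 549 features that rose are red and the 235 that fell are blue; 3 rises stand far above the rest, and the points past the threshold lie at all signal levels.

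A few transcripts stood apart by size. The leading rise was 14.9-fold, the second 6.93-fold and the third 5.86-fold, after which the fourth was 2.64-fold and the fourteenth 2.16-fold. Among falls the first was 3.67-fold and the second 3.16-fold, followed by 2.03-fold and 1.87-fold. The first 2 features of each direction are described below array by array.

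NM_016084, an annotated protein-coding RefSeq record, showed the highest rise. Its levels on the 3 Y30F-DMSO arrays were -1.12, -0.88 and -0.86 (log2), and on the Y30E-DMSO arrays -1.03, -0.83 and -1.05. With dexamethasone they were 2.78, 2.89 and 2.92 for Y30F and 2.92, 3.12 and 2.97 for Y30E. All 6 dexamethasone arrays lay far above all 6 DMSO arrays, and arrays of a treatment lay close together whichever receptor or slide they came from. Its mean signal went from 418 on the DMSO arrays to 6160 on the dexamethasone arrays. The average effect was 3.90 ± 0.06 (log2, SE, n = 6 against 6, 95% interval 3.76 to 4.03, limma adjusted p = 6.50e-11). A second probe for the same record, left out of the test because it was dim, was well above background on all 6 dexamethasone arrays and on 0 DMSO arrays. It was at least 13.1-fold higher, at least 12.6-fold in Y30F and 13.6-fold in Y30E. For these bounds each DMSO array entered with its own signal or with its dimmest detected signal, whichever was higher. Bounds were computed only for probes detected with 1 treatment, so their direction is given by that choice.

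NM_015193, also a protein-coding record, was dim under DMSO, with levels of -3.74, -3.60 and -3.58 for Y30F and of -3.53, -3.62 and -3.68 for Y30E. Dexamethasone brought it to -0.86, -0.88 and -0.82 for Y30F and to -0.65, -0.90 and -0.87 for Y30E. The treatments did not overlap, and the highest array, Y30E-DEX replicate 1, was also the only one that stood more than 0.1 away from the other dexamethasone arrays. The average effect was 2.79 ± 0.05 (log2, SE, n = 6 against 6, 95% interval 2.68 to 2.91, limma adjusted p = 1.43e-10). Its mean signal was 66.0 under DMSO and 454 with dexamethasone, and the size of the effect depended on the background correction. With normexp it was 1.99, still past the threshold, and the offset of 50 added to each signal there lowers the change of a feature this dim by construction.

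NM_018933, the record with the largest fall, is protein-coding as well. Its levels were 2.59, 2.38 and 2.16 on the Y30F-DMSO arrays and 2.28, 2.54 and 2.37 on the Y30E-DMSO arrays. Under dexamethasone they were 0.19, 0.75 and 0.26 for Y30F and 0.67, 0.57 and 0.61 for Y30E. The treatments did not overlap, while the Y30F-DEX arrays were spread more widely (SD 0.31, n = 3) than the Y30E-DEX arrays (SD 0.05, n = 3). The average effect was -1.88 ± 0.10 (log2, SE, n = 6 against 6, 95% interval -2.10 to -1.65, limma adjusted p = 1.73e-06).

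A_23_P300563, a probe to which the files give no record, fell from a mean signal of 28058 under DMSO to 8794 with dexamethasone. The levels were 4.97, 5.09 and 4.92 for Y30F-DMSO, 5.29, 5.18 and 5.18 for Y30E-DMSO, 3.55, 3.27 and 3.43 for Y30F-DEX and 3.41, 3.49 and 3.52 for Y30E-DEX. Every dexamethasone array was below every DMSO array. The Y30E-DMSO arrays were all above the Y30F-DMSO arrays, while the dexamethasone arrays of the receptors overlapped. All Y30F-DMSO arrays were on slide 1 and the Y30E-DMSO arrays on slides 2 and 3, so receptor and slide cannot be told apart in that order. The average effect was -1.66 ± 0.05 (log2, SE, n = 6 against 6, 95% interval -1.78 to -1.54, limma adjusted p = 2.81e-08).

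**Figure D2:**
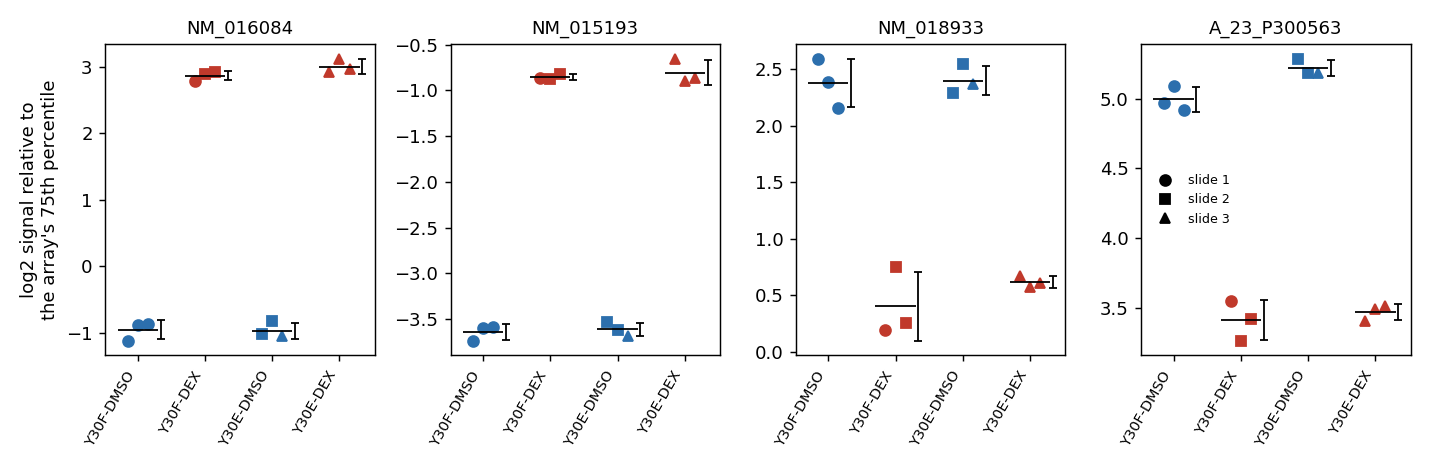
Levels of the 4 identified features on each array (log2 signal relative to the array's 75th percentile, vertical axis, drawn to its own scale in each panel) by group, with the group mean as a line, its SD (n = 3) as a bar and the slide as the marker. In each panel the dexamethasone arrays (red) and the DMSO arrays (blue) do not overlap, with either receptor.

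The separation of treatments held for most changed features. Within each receptor the 3 dexamethasone arrays did not overlap the 3 DMSO arrays, in the direction of the average, for 476 of the 549 features that rose and for 197 of the 235 that fell. Over all 18424 features that pattern was met by 946 (5.13%). With all 6 dexamethasone arrays set against all 6 DMSO arrays, 413 of the 549 and 153 of the 235 did not overlap, against 669 features in all (3.63%). These counts use the same arrays as the test and describe it. All 97 features changed by at least 1.5-fold were free of overlap within both receptors. The median of the 549 features that rose, taken on each array relative to the mean of the DMSO arrays, was between -0.06 and 0.03 (log2) on the 6 DMSO arrays and between 0.29 and 0.36 on the 6 dexamethasone arrays. That of the 235 that fell was between -0.02 and 0.02 under DMSO and between -0.31 and -0.23 with dexamethasone. In each set the 3 Y30E-DEX arrays, which shared slide 3, lay farther from the DMSO arrays than the 3 Y30F-DEX arrays did, and receptor and slide cannot be told apart in that order.

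**Figure D3:**
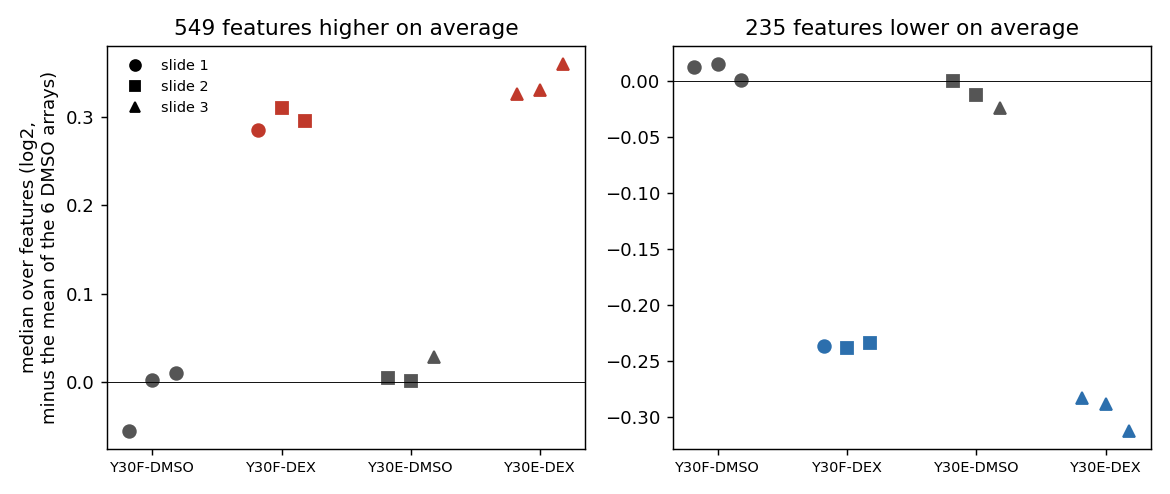
Median over the 549 features that rose (left) and the 235 that fell (right) on each array (log2, minus the mean of the 6 DMSO arrays, vertical axis) by group, with the slide as the marker. The features were chosen on these arrays, so the distance between treatments is given by that choice; the plot shows how close the arrays of a treatment lie, between 0.29 and 0.36 with dexamethasone on the left.

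An average can stand for equal effects or for unequal ones, so the effect in each receptor was set beside it. All 784 features moved the same way in both receptors, against 53.5% of all features, though a feature is more likely to pass on its average when both effects have 1 sign. Among those that rose the median effect was 0.30 (log2) in Y30F and 0.32 in Y30E, and among those that fell it was -0.24 and -0.27. The 14 features with a rise of at least 2-fold had effects of 1.00 to 3.82 in Y30F and of 1.02 to 3.97 in Y30E. The 3 falls of that size had effects of -1.97 to -0.97 in Y30F and of -1.78 to -1.07 in Y30E. For NM_016084 the effect was 3.82 ± 0.09 in Y30F and 3.97 ± 0.09 in Y30E (log2, SE, n = 3 against 3). NM_015193 had nearly equal effects, 2.79 ± 0.07 in Y30F and 2.80 ± 0.07 in Y30E. Of the falls, that of NM_018933 was -1.97 ± 0.15 in Y30F and -1.78 ± 0.15 in Y30E. The order was the other way round for A_23_P300563, with -1.58 ± 0.08 in Y30F and -1.74 ± 0.08 in Y30E. The intervals of these gaps are given next.

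The difference of the effects, Y30E minus Y30F, was tested in the same fit. Slide 2 held most Y30F-DEX and Y30E-DMSO arrays, so an offset of that slide adds up in this difference. Counts and intervals of the difference from this fit include that offset, and receptor and slide cannot be told apart in them. By limma 0 of 18424 features passed, with 0.136 as the smallest adjusted p. At an unadjusted p under 0.05 there were 1866 (10.1%). Among the 784 features with a changed average, the 95% interval of the difference excluded 0 for 56 (7.14%). For 733 of the 784 the whole interval was smaller than a 1.5-fold difference in either direction, and for 776 smaller than a 2-fold one. It ran from -0.12 to 0.43 (log2) for NM_016084 and from -0.21 to 0.24 for NM_015193. For NM_018933 it ran from -0.26 to 0.65 and for A_23_P300563 from -0.40 to 0.07. Each of these intervals includes 0. Among the 17 features changed at least 2-fold, 3 intervals excluded 0, all with the higher effect in Y30E. The third-ranked rise had the widest gap of these, with 2.17 in Y30F and 2.93 in Y30E, a difference of 0.77 (95% interval 0.45 to 1.08, limma adjusted p = 0.201). With slide as a fixed block 13 features passed for the difference, all with a difference below 0. Leaving out Y30F-DEX replicate 1 gave 825, of which 774 were below 0, and leaving out Y30E-DMSO replicate 3 gave 77. Without the first the Y30F effect compares slide 2 with slide 1 only. Without the second the Y30E effect compares slide 3 with slide 2 only. Receptor and slide cannot be told apart in these counts.

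**Figure D4:**
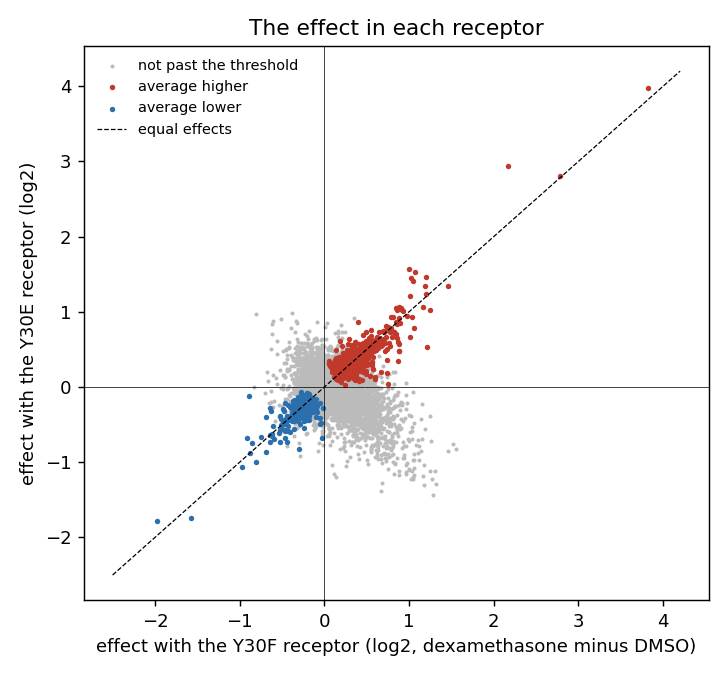
Effect of dexamethasone with the Y30E receptor (log2, vertical axis) against that with the Y30F receptor (log2, horizontal axis), with 1 point per feature and equal effects on the dashed line. Features with a changed average (red and blue) lie along the line, while 185 of the features past 0.5 in opposite directions lie below and to the right, with 7 on the other side.

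That plot also shows what the average leaves out. Among all features 185 had an effect of at least 0.5 (log2) upward in Y30F and of at least 0.5 downward in Y30E, and 7 had the opposite pattern. Of these 192 features 182 were in the dimmest class of signal, and 0 passed the test of the average by limma, with averages of up to 0.38 in size and a median of 0.003. The arrays came on 3 slides of 4 arrays each. All Y30F-DMSO arrays were on slide 1, together with 1 Y30F-DEX array (replicate 1). All Y30E-DEX arrays were on slide 3, together with 1 Y30E-DMSO array (replicate 3). On slide 2 were the remaining 2 arrays of Y30F-DEX and 2 of Y30E-DMSO. A signal offset on slide 2 therefore enters the Y30F effect and the Y30E effect with opposite sign and cancels in their mean. In the difference of the effects it adds up. An offset between slides 3 and 1 does not cancel and enters the average with a weight of 1/3.

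The size of that remaining offset was estimated in a fit with group and slide together. Slides 1 and 3 shared no group, so the estimate runs through the Y30F-DEX and Y30E-DMSO arrays of slide 2. It rests on few arrays, and a low number of features past the threshold does not show that the offset is small. By limma 13 of 18424 features differed between slides 3 and 1 (0.0706%), and 0 of these were among the 784. The 784 are 4.26% of all features, so 0 of 13 is not far from that share. The offset with that weight had a median size of 0.03 (log2) among the 784 features, against a median size of 0.29 for their average effect. Over all features the offset with that weight had a median size of 0.04, against a median size of 0.05 for the average effect. The 784 were chosen for their average, so the gap between 0.03 and 0.29 is in part given by that choice. Among the 784 the weighted offset was as large as the average in 0, a count that the choice also favours. In the direction of the average it reached 0.5 of its size or more in 3. The weighted offset had the sign of the average in 340 of the 549 rises and in 125 of the 235 falls. That average includes the offset, so a choice by the average favours a shared sign, and the share over all features was not determined. For NM_016084 and NM_015193 the weighted offset was -0.001 and -0.03, and for NM_018933 and A_23_P300563 it was 0.09 and -0.09.

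Within slides the directions were kept by nearly all changed features, on arrays that also enter the average. Set against DMSO arrays of their own slide, Y30F-DEX on slide 1 and Y30E-DEX on slide 3 both moved in the direction of the average for 546 of the 549 rises and 231 of the 235 falls. Y30F-DEX replicate 1 was the only dexamethasone array on slide 1, and Y30E-DMSO replicate 3 the only DMSO array on slide 3. Both enter the average on which the features were chosen, so the kept directions are in part given by that choice. NM_016084 differed by 3.74 (log2) within slide 1 and by 4.05 within slide 3, and NM_015193 by 2.78 and 2.87. NM_018933 differed by -2.18 and -1.75, and A_23_P300563 by -1.44 and -1.71. In the fit with slide as a fixed block, which takes the average from these within-slide effects, 346 features passed (1.88%), 238 higher and 108 lower, and 287 of them were among the 784. The median average of the 549 rises was 0.30 there and that of the 235 falls was -0.25, close to the values without the block, while the median SE over all features was 0.07 in place of 0.05. The calls that were lost were mostly those of small changes. Of the features changed at least 1.5-fold 91 of 97 passed with the block, of those changed 1.2-fold to 1.5-fold 179 of 361, and of those changed less 17 of 326. Of the 17 features changed at least 2-fold 15 passed with the block, and 14 of those were at least 2-fold there as well. The fourteenth rise passed with 0.99 (log2). The 2 that did not pass were the sixth and the seventh rise in order of size, both in the dimmest class. Their averages were 1.30 and 1.29 (log2) without the block and 0.88 and 1.12 with it (limma adjusted p = 0.424 and 0.0838).

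**Figure D5:**
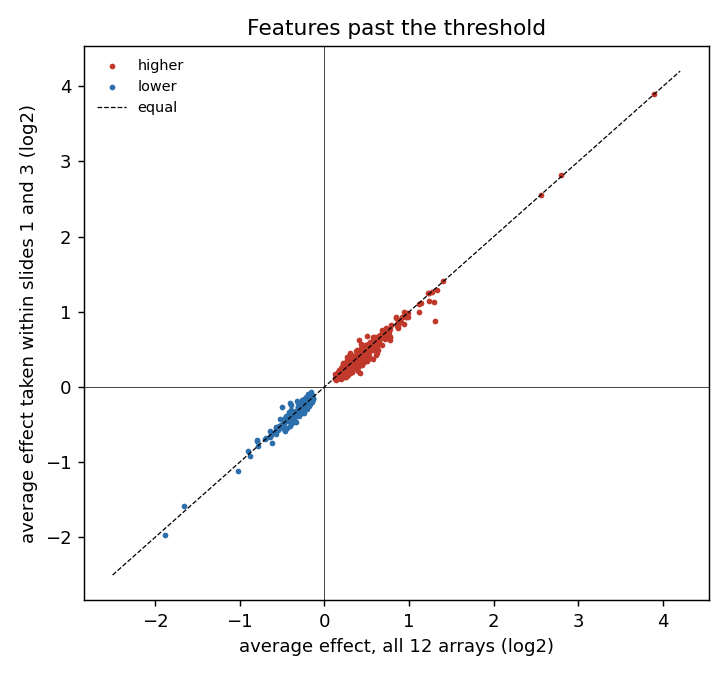
Average effect with slide as a block, taken within slides 1 and 3 (log2, vertical axis), against the average effect over all 12 arrays (log2, horizontal axis) for the 784 features past the threshold; the dashed line marks equality. Medians were 0.31 without and 0.30 with the block for rises and -0.26 and -0.25 for falls, and no point changes sign.

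Changed features were found at every signal level. Ranked by mean signal, 238 features of the dimmest class had changed (3.88%), 337 of the middle class (5.49%) and 209 of the brightest class (3.40%), and rises made up between 69.7% and 70.8% of the changes in each. The median SE of the average was 0.085 (log2) in the dimmest class, 0.051 in the middle and 0.045 in the brightest, and the median rise was 0.40, 0.29 and 0.26 in that order. The median fall was -0.27, -0.24 and -0.26, so the falls did not follow the order of the rises. Of the 17 features changed at least 2-fold, 8 were dim, 3 in the middle and 6 bright. With the slide block 87 of the 238 dim changes, 121 of the 337 in the middle and 79 of the 209 bright ones passed as well.

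The changed features were mainly protein-coding records, which are also most of the array. Of 13555 tested protein-coding RefSeq records (NM) 670 had changed (4.94%), with 464 rises and 206 falls. Among them were 16 of the 17 changes of at least 2-fold. Of 512 non-coding RefSeq records (NR) 14 had changed (2.73%), 13 higher and 1 lower. Of 730 Ensembl transcripts 25 had changed (3.42%), and of 1898 probes without a record 34 had (1.79%). The median SE was 0.051 (log2) for NM records and 0.066 for NR records, so these shares come with unequal precision, and their difference was not tested.

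Other probes for the same record gave a second reading from the same RNA. For 197 of the 784 changed records 239 further probes were well above background on all arrays, and 218 of them (91.2%) moved in the direction of the record's brightest probe. Among records whose brightest probe had not passed, 66.9% of 4919 further probes did so. In a fit of every probe 90 of the 239 passed the test in the same direction and 0 in the opposite one. Over all probes of that fit, the brightest ones included, 929 of 23582 passed. For records changed at least 1.5-fold 18 of 19 further probes moved the same way. The effect of a further probe was a median of 0.738 times that of the brightest one.

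The requirement of a signal on all 12 arrays leaves out transcripts that the hormone brought up from background. Of 41000 probes 9 were well above background on all 6 dexamethasone arrays and on 0 of the 6 DMSO arrays. The reverse pattern was met by 1 probe. One of the 9 was the second probe for NM_016084. The other 8 were at least 1.46-fold to 2.47-fold higher on average over the receptors, and 2 of the 8 were at least 2-fold higher in each receptor. These probes were chosen for being detected only with dexamethasone, so the direction of the bounds is given by that choice. In these bounds each DMSO array entered with its own signal for the probe or with the dimmest detected signal of that array, whichever was higher. They include any offset between slides. One of the 8 had a brighter probe for its record that did not pass (average 0.10, limma adjusted p = 0.916). The probe with the reverse pattern was at least 1.37-fold lower, and a brighter probe for its record had an average of 0.02 (limma adjusted p = 0.899). When features needed a signal on all arrays of only 1 group, 1613 further records entered the test and 46 of them passed (2.85%), 38 higher and 8 lower. Such a record can enter through the group in which it is high, so this count says nothing about how often dim transcripts change.

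Precision was limited by the number of arrays. The median SD between the 3 arrays of a group was 0.09 (log2) for Y30F-DMSO, 0.08 for Y30F-DEX, 0.07 for Y30E-DMSO and 0.08 for Y30E-DEX. For 214 probes printed on 10 spots per array and well above background throughout, the median SD between spots of 1 array was 0.06 and that between replicate arrays, each the mean of its spots, was 0.07. Averaging over the receptors lowered the median SE from 0.08 in each receptor to 0.05.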

How the data were processed

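Per the labels' protocols, Cy3-labelled cRNA from total RNA was hybridised to Agilent whole human genome arrays, 1 sample per array. The deposited intensity values are Agilent Feature Extraction (version 12, per the submitters' processing notes) processed green signals. Per the file headers, background and spatial trend had been removed on each array, and no scaling across arrays is recorded. The series table holds the same values. Of 43376 non-control spots, 89 to 154 per array were outliers and were left out, and spots of a probe were averaged. The log2 signal was reduced by the array's 75th percentile (706 to 876). A probe needed at least 0.5 of its spots flagged well above background on each of 12 arrays (23582 of 41000 probes), and the brightest stood for its record.

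Groups came from the sample titles. Another label lists 1 construct per mutant, and the descriptions, which list both, were followed. The labels do not say whether the 3 replicates were separate cultures, and if they were not, the spread behind the p-values is technical. limma 3.58.1 (R 4.3.3) was fitted to 4 group means with 8 residual degrees of freedom, and p-values were adjusted over all 18424 features with a threshold of 0.05. A value was missing on 1 or 2 arrays for 34 features, 0 of them among the changed ones. The code was tested on simulated data without slide offsets or differences between the receptors, so that test does not cover them. The comparison, features and alternatives were chosen with earlier results of these data known. The identified features are the 2 per direction with the largest average among those past the threshold whose treatments do not overlap within either receptor. Lists of genes were drawn up but not used, since the files do not pair records with gene names. The normexp alternative used the median spot and background intensity per the file headers.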

Additional observations from a re-analysis of the deposited data

How the results depend on the processing

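All 4 identified features kept their direction and passed the threshold in each of the 30 alternatives, with effects of 3.69 to 3.93 (log2) for NM_016084, 1.99 to 2.83 for NM_015193, -1.97 to -1.82 for NM_018933 and -1.70 to -1.58 for A_23_P300563. These features were chosen for large effects past the threshold, which favours that outcome. The alternatives are not 30 separate readings, since the series table holds the same values and the threshold of 0.01 uses the same fit. Without 1 array at a time the number of changed averages was 562 to 847, and the number of changed differences 0 to 825: 825 when Y30F-DEX replicate 1 was left out, 77 when Y30E-DMSO replicate 3 was, and 0 for each other array. In the 825 and the 77 receptor and slide cannot be told apart. Changed averages numbered 452 with median centring, 346 with slide as a fixed block, 342 with that block and additive treatment and receptor, 218 without slide 2, 1694 with array weights and 418 at an adjusted p under 0.01. The fits with the block and the fit without slide 2 give the same estimates of the average and count as 1 reading, with fewer arrays behind it. Changed differences numbered 4 with median centring, 13 with the slide block, 4 without slide 2 and 1613 with array weights, which ran from 0.48 to 3.34. The cause of these moves was not tested. Rises were 60.8% to 73.6% of the changed averages over the scalings and background corrections. Quantile normalization, the 75th percentile of detected probes, normexp, the series table, the other filters, every probe, slide as a random block and other priors kept the number of averages between 536 and 929, and that of differences at 0. With the replicate block 607 averages and 0 differences passed. Replicate numbers were shared by all groups. Deviations from the group means of same-numbered arrays correlated from -0.47 to 0.30, over 0.1 in 3 of 18 pairs. Of 12 arrays 3 correlated best with their own number. These deviations also hold any slide offset, so they cannot decide whether the numbers pair the arrays. Signals near background limit the reading of the dimmest class of features.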
